A study of Mus musculus with 5 samples.

Results

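The immediate early transcription factors described here are 10 genes, chosen by name: Fos, Fosb and Fosl2 of the Fos family, Jun, Junb and Jund of the Jun family, the zinc finger genes Egr1 and Egr2, Atf3 and the orphan nuclear receptor gene Nr4a1. All 10 were present in the count tables of all 4 days, among 18132 genes in all. The data are single-cell RNA counts from droplet libraries (10x Genomics 3' v2 chemistry) of the tibialis anterior, a lower leg muscle, of C57Bl/6 mice, without injury (day 0) or 2, 5 and 7 days after injection of notexin, a snake venom phospholipase that destroys muscle fibres. In every group the muscle was digested for about an hour with Collagenase D and Dispase II, and live cells were sorted by propidium iodide and Calcein-AM before loading. The day 0 cells came from females of 4 months, the day 2 cells from females of 7 months, the day 5 cells from females of 4 months and the day 7 cells from males of 4 months. Day 0 was sequenced in 2 runs that share 1 matrix and cannot be told apart, and each other day is 1 sample. Day therefore cannot be told apart from age, sex or sample, and no test between days or cell labels was possible. No undigested control was among the samples, so a response to the digestion and the state of the cells in the muscle cannot be told apart.

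Immediate early genes are switched on within minutes of a growth factor, stress or wounding signal, without new protein synthesis. Fos and Jun proteins pair through their leucine zippers to form AP-1, which binds short sites in the enhancers of genes for growth, matrix remodelling and inflammation, and ATF3 belongs to the same basic leucine zipper class. EGR1 and EGR2 bind GC-rich sites through zinc fingers, and NR4A1 acts without a known natural ligand. The same genes are known to rise in muscle cells during enzymatic dissociation.

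The promoters of Fos, Junb and Nr4a1 are shown because several members are commonly reported to respond to cyclic AMP and calcium signals through the CRE element, and each stands for another family among the members. Sequences are from the RefSeq promoter table for build GRCm38.p6, which held 9 of the 10 members (all but Egr1). Each line gives the 250 bases before the start site of the table's entry, 5' to 3' on the gene's strand, with each match to the core of the CRE (TGACG, or CGTCA on the other strand) in capitals. The Fos window is chr12:85473640-85473889 on the plus strand, the Junb window is chr8:84978749-84978998 on the minus strand, and the Nr4a1 window is chr15:101266596-101266845 on the plus strand. The Fos and Junb windows end where the annotated gene begins. The Nr4a1 window lies inside the annotated gene (chr15:101253902-101274795), before an internal start site.
Fos: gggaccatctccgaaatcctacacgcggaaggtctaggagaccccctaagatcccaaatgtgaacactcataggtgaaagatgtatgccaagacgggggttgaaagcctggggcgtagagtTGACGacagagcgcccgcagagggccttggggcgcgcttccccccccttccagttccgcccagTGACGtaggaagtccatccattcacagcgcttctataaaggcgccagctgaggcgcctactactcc
Junb: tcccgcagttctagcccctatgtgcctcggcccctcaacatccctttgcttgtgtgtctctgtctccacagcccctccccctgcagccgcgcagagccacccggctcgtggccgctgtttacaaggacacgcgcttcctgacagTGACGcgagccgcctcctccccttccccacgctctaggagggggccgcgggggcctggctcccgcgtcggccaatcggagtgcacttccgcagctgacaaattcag
Nr4a1: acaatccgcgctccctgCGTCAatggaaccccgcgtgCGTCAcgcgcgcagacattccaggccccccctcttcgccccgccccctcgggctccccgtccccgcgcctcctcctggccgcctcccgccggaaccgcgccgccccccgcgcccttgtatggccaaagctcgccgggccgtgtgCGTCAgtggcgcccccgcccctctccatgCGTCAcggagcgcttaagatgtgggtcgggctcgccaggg
Fos held 2 matches, which began at positions -129 and -66 from that start site, Junb held 1 at -106, and Nr4a1 held 4 at -233, -213, -69 and -40. The core was present in 6 of the 9 members (also in Fosb, Egr2 and Atf3), against 19.8% of the 27025 genes in the table, with windows of the same length. The full palindrome TGACGTCA, which contains the core on both strands, was in none of the 9 members and in 1.77% of all genes. The AP-1 letters TGANTCA, searched on both strands, were in none of the 9 and in 7.82% of all genes. Within these windows a CArG box, the serum response factor motif, was found only in Egr2, which has 5 windows, against 1.62% of all genes. Sequence beyond the 250 bases was not searched for any motif, nor was Egr1. A match describes these letters only.

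The deposited cell labels were used as given and give 31 groups of label and day, of which 30 held at least 40 cells. The matrices held 5176, 4903, 2164 and 5680 labelled cells at days 0, 2, 5 and 7, with medians of 3832.5, 9683, 2018 and 5991 UMIs (unique molecular identifiers, each a counted transcript) per cell. Between 9 and 40 barcodes were shared by each pair of days. Levels are given as counts summed over the cells of a group per 1000000 UMIs (CPM), and their exact Poisson 95% intervals cover counting error only. Counts were not divided by gene length, so each gene is compared with itself across groups. Some labels went against their markers. The cells labelled Platelets at day 0 held 33 CPM of platelet markers and 7050 CPM of endothelial markers. The day 2 cells labelled B cells held 2 CPM of B cell markers and 59156 CPM of dendritic cell markers, and the day 0 label Neural/Glial/Schwann cells held 41811 CPM of mature muscle markers and 4110 CPM of glial markers. The day 5 label Macrophages/APCs/T-cells held 446 CPM of macrophage markers and 3094 CPM of NK or T cell markers. These groups are called by their labels only.

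Uninjured muscle held the highest levels of the 10 genes together, and every label measured at day 2 stood below every day 0 label. The summed level at day 0 ran from 6560 CPM in the cells labelled Platelets to 14391 CPM in tenocytes (tendon cells), with 12149 CPM in fibro-adipogenic progenitors (FAPs, the matrix-producing mesenchymal cells of muscle), 10690 CPM in endothelial cells and 8031 CPM in immune cells. At day 2 the levels were 5206 CPM in FAPs, 4475 CPM in endothelial cells, 2583 CPM in the Immune label and 1202 CPM in muscle stem cells and progenitors (MuSCs). At day 5 FAPs stood at 11608 CPM and MuSCs at 5652 CPM. At day 7 FAPs stood at 9236 CPM and MuSCs at 5930 CPM, while endothelial cells stood at 4190 CPM, close to their day 2 level. Cells labelled mature skeletal muscle were lowest on the days they were present, with 1094 CPM at day 5 and 905 CPM at day 7. The day 2 cells were also those with the most UMIs per cell.

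**Figure D1:**
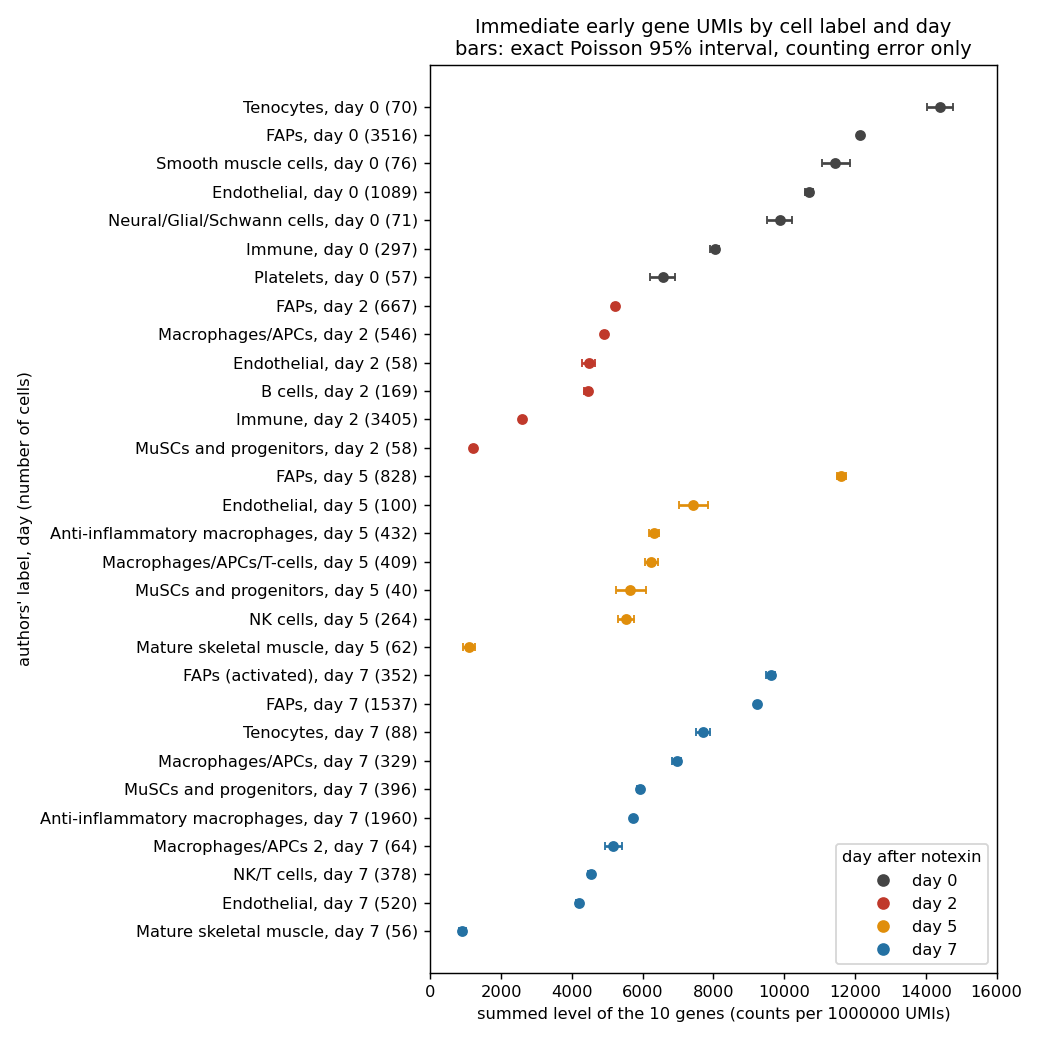
Summed level of the 10 genes in counts per 1000000 UMIs (x axis) for each of the 30 groups of label and day with at least 40 cells (y axis, number of cells in brackets). Points are coloured by day and bars are exact Poisson 95% intervals, and the 6 day 2 groups lie between 1202 and 5206, below all day 0 groups.

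Among the Fos family in FAPs, Fos, the founding AP-1 partner, was measured at 2785 CPM at day 0, 1173 CPM at day 2, 2727 CPM at day 5 and 2798 CPM at day 7 (both FAP labels of that day together). The day 2 level was low and the other 3 days lay within a log2 ratio of 0.04 of each other. The log2 ratio of day 2 to day 0 was -1.25 (Clopper-Pearson 95% interval -1.28 to -1.22, counting error only). Fosb, a Fos relative whose shorter product can persist in cells, stood at 626, 382, 1256 and 688 CPM on the same days, so that day 5 was the high day, with a log2 ratio to day 0 of 1.00 (interval 0.95 to 1.06). Fosl2, which encodes the Fos-related antigen FRA2, stood at 112, 69.5, 169 and 58.6 CPM. Its day 5 level was above day 0 and its day 2 and day 7 levels were below it.

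Of the Jun family in FAPs, Jun stood at 1374, 645, 1166 and 1395 CPM at days 0, 2, 5 and 7. Junb, often described as a restraint on Jun activity, stood at 3319, 960, 1881 and 1748 CPM, and Jund, the family member that resting cells also express, at 1754, 751, 1079 and 1016 CPM. Jun was back at its day 0 level by day 7, with a log2 ratio of 0.02 (interval -0.01 to 0.05). Junb and Jund were not: at day 7 their log2 ratios to day 0 were -0.92 (interval -0.95 to -0.90) and -0.79 (interval -0.82 to -0.76). Junb had the lowest log2 ratio of the 10 at day 2, at -1.79 (interval -1.82 to -1.76).

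The remaining 4 genes did not follow 1 course in FAPs. Egr1, a sensor of growth factor signalling, stood at 1369, 855, 2510 and 1103 CPM, with its high point at day 5. Egr2, known for its part in myelination and in lymphocyte tolerance, stood at 32.9, 55.3, 93.3 and 62.6 CPM, and was the only member above day 0 on all 3 days after injury. Its log2 ratios to day 0 were 0.75 at day 2 and 0.93 at day 7, with an interval of 1.29 to 1.72 at day 5, and its levels rest on 272 to 903 UMIs a day. Atf3, a stress-induced repressor, stood at 450, 171, 367 and 276 CPM. Nr4a1, which restrains inflammatory genes in macrophages, stood at 327, 144, 361 and 147 CPM, low at days 2 and 7.

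**Figure D2:**
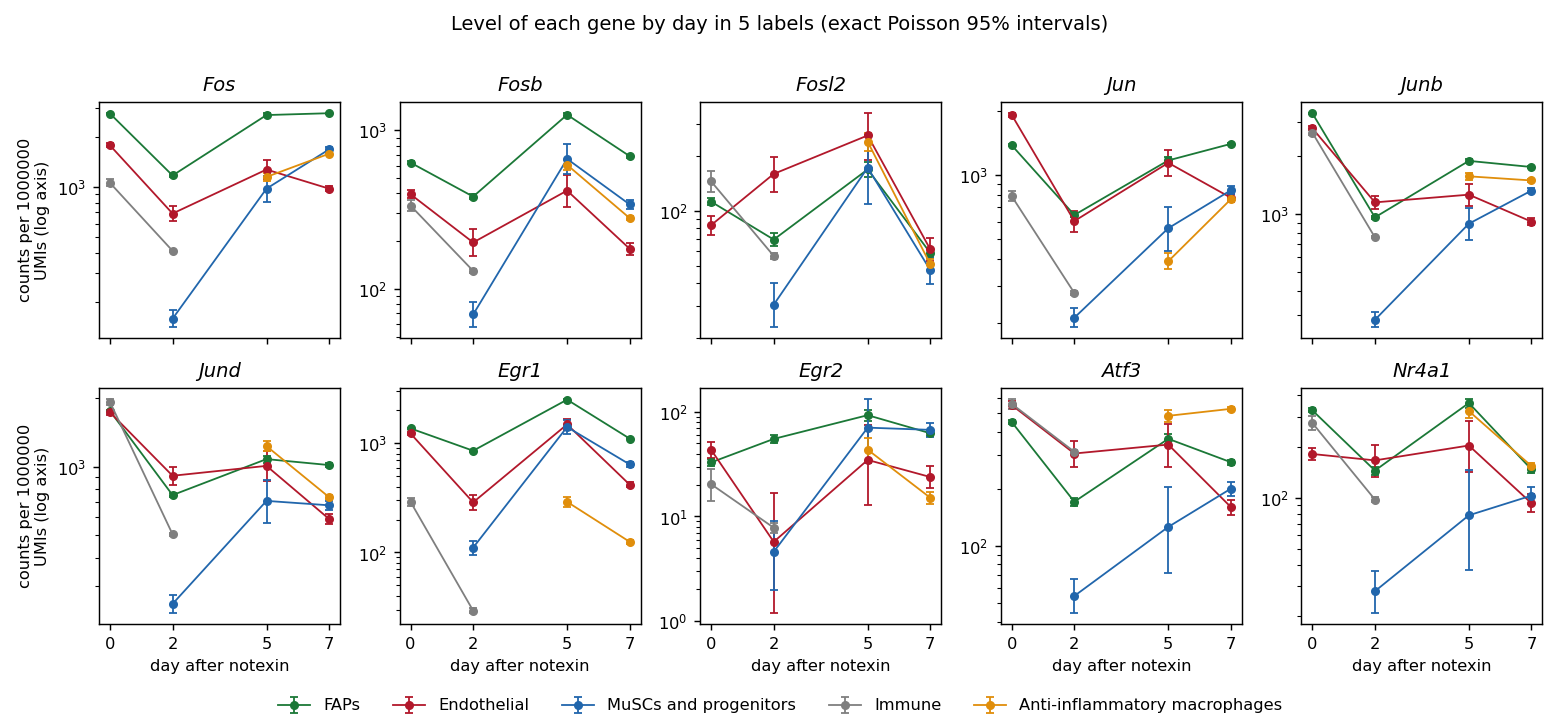
Level of each gene in counts per 1000000 UMIs (log y axis) by day after notexin (x axis) in 5 labels, with the FAP labels of day 7 joined; bars are exact Poisson 95% intervals. In FAPs (green) 9 of the 10 genes are lower at day 2 than at day 0, and Fosb, Fosl2, Egr1, Egr2 and Nr4a1 are highest at day 5.

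Counting members past 2-fold, 6 of the 10 were lower in FAPs at day 2 than at day 0 and 0 were higher, where 14.1% of the 12995 genes with at least 20 UMIs were at least 2-fold lower and 10.9% higher. The 6 were Fos, Jun, Junb, Jund, Atf3 and Nr4a1, and the median log2 ratio of the 10 was -1.13, against -0.17 over all genes tested. On the authors' normalized scale, a mean of log values per cell, 1 member, Junb, was past 2-fold, and all 10 kept their direction. Why fewer members passed on that scale was not tested. On that scale 0 to 4 members were past 2-fold in the other comparisons of days. With every cell thinned to 1000 UMIs, 5 were past 2-fold in FAPs at day 2. FAPs of day 2 held 2599 CPM of macrophage markers against 53 CPM at day 0, with 12321 UMIs per cell at the median against 4452. Without the 34 of 667 day 2 cells richest in macrophage marker RNA, 6 members were again past 2-fold. At day 5 against day 0, Fosb and Egr2 were at least 2-fold higher, where 10.2% of genes were, and 0 members were at least 2-fold lower, where 10.3% were. Fosb lay at the threshold: it was under 2-fold when every cell weighed the same (0.89), which leaves 1 member. At day 7 against day 0, Nr4a1 alone was past 2-fold, with a log2 ratio of -1.16 (interval -1.23 to -1.08), where 10.6% of genes were at least 2-fold lower and 9.99% higher. With ratios centred on the median of all genes, Egr2 passed as well, at 1.01. From day 2 to day 5, 6 members were at least 2-fold higher, where 15.9% of genes were, and the intervals of all 10 lay above 0. From day 5 to day 7, Fosl2, Egr1 and Nr4a1 were at least 2-fold lower, where 11.9% of genes were.

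At day 7 the authors split FAPs into 352 cells labelled FAPs (activated) and 1537 labelled FAPs. Atf3 stood at 496 CPM in the activated label and 238 CPM in the other, a log2 ratio of 1.06 (interval 0.96 to 1.16), where 5.57% of genes were at least 2-fold higher. Egr2 went the other way, at 24.1 against 69.2 CPM, a log2 ratio of -1.52 (interval -1.96 to -1.11), where 13.6% of genes were at least 2-fold lower. Fos hardly differed, at 2846 and 2789 CPM, with an interval of -0.01 to 0.07 around a log2 ratio of 0.03. Jun was lower in the activated label, at 1016 against 1460 CPM.

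In endothelial cells day 0 was the high day for most members, and day 7 stood low. Fos in endothelial cells stood at 1787, 690, 1275 and 976 CPM at days 0, 2, 5 and 7. Jun stood at 1910, 604, 1136 and 778 CPM, and Junb at 2776, 1147, 1257 and 912 CPM. For these 3 genes the intervals of the log2 ratios to day 0 lay below 0 on every later day. Egr1 stood at 1230, 288, 1489 and 417 CPM, high at days 0 and 5 and low at days 2 and 7. At day 7 against day 0, 6 members were at least 2-fold lower (Fosb, Jun, Junb, Jund, Egr1 and Atf3), where 10% of genes were and 7.08% were higher, and the intervals of all 10 lay below 0. The lowest of these log2 ratios was that of Atf3, at -1.79 (interval -1.94 to -1.64), from 552 to 160 CPM. The median over the 10 was -1.22, against -0.11 over all genes tested.

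At day 2 against day 0, 6 members were at least 2-fold lower in endothelial cells, where 19.7% of genes were. Fosl2 stood apart, at 83.5 CPM at day 0, 160 CPM at day 2, 261 CPM at day 5 and 61.3 CPM at day 7. Its log2 ratio of day 5 to day 0 was 1.64 (interval 1.15 to 2.10), and it was the only member at least 2-fold higher there, where 13.8% of genes were called so. That share can include genes with 0 UMIs at day 5 and few at day 0, as a count of 0 was set to 3. Junb was the only member at least 2-fold lower at day 5, at -1.14, where 15.6% of genes were. With every cell weighing the same, 1 member in place of 2 was past 2-fold at day 5. The day 2 group was 58 cells and held 9680 CPM of macrophage markers against 4128 CPM of endothelial markers. With the 13 cells richest in macrophage markers left out, 6 members were past 2-fold at day 2. The FAP markers Col1a1, Col3a1, Dcn and Gsn, used for all such shares, were also found in endothelial cells. Their median share of the FAP level there was 12.8% at day 0 and 0.960% to 2.37% on the other days. For Fos that share of the FAP level would be 355 CPM, of the 1787 CPM measured.

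**Figure D3:**
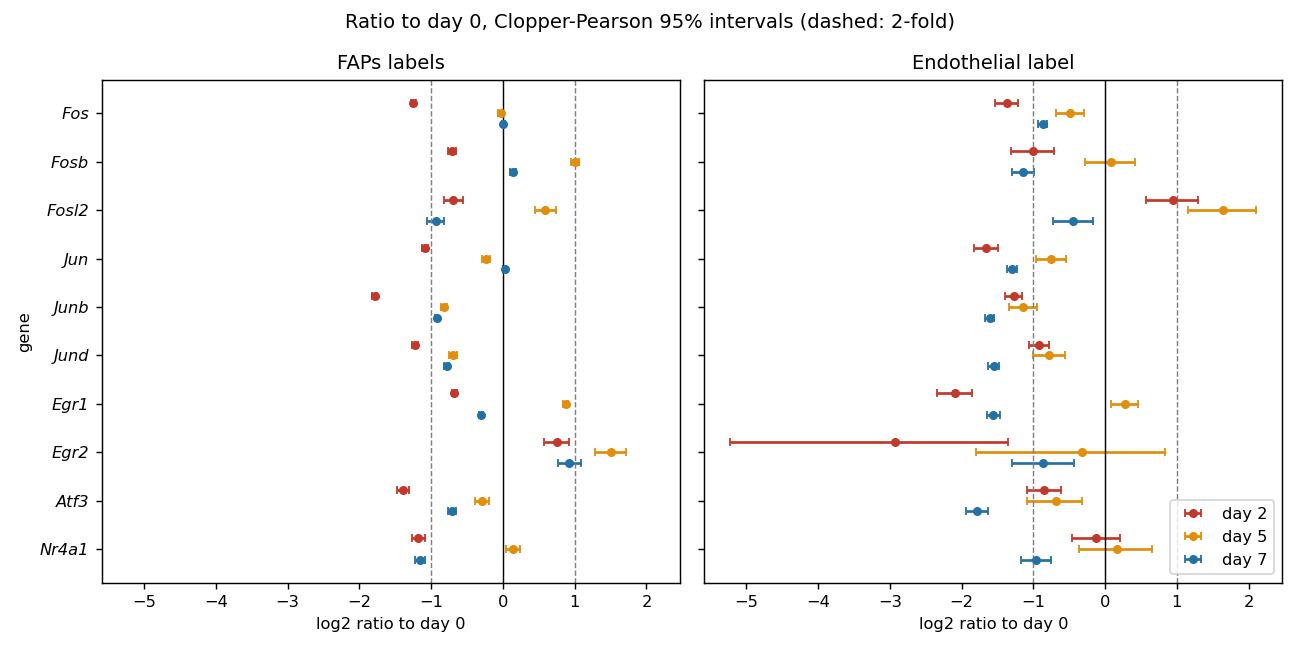
Log2 ratio of each gene's level at days 2, 5 and 7 to day 0 (x axis) in the FAP labels (left) and the Endothelial label (right), with Clopper-Pearson 95% intervals and dashed lines at 2-fold. The same day 0 cells are the base of all 3 ratios; in FAPs Fos and Jun at day 7 lie near 0, while in endothelial cells all day 7 points lie below 0.

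Muscle stem cells and progenitors, the cells that rebuild fibres, held little of the 10 genes at day 2 and more on the later days. Fos in MuSCs stood at 159 CPM at day 2, 976 CPM at day 5 and 1689 CPM at day 7. Egr1 stood at 111, 1409 and 640 CPM, so Fos was highest at day 7 and Egr1 at day 5. From day 2 to day 5, all 9 members with at least 20 UMIs were at least 2-fold higher, where 19% of genes were. Their log2 ratios ran from 1.21 for Atf3 (interval 0.34 to 1.98) to 3.67 for Egr1 (interval 3.37 to 3.97), and Egr2, with 8 and 9 UMIs, was under the minimum. Atf3 rests on 16 UMIs at day 5 and turned to -2.27 when cells were thinned to 1000 UMIs, and to -0.07 on the authors' normalized scale. At day 7 against day 2, 9 of the 10 were at least 2-fold higher, where 25.9% of genes were. Only Fosl2 was not, at 30.4 CPM at day 2 and 47.1 CPM at day 7. These groups held 58, 40 and 396 cells with medians of 34387, 2524.5 and 5881 UMIs per cell, and the day 7 cells held 6421 CPM of macrophage markers. Without cells rich in those markers the counts were again 9 and 9. From day 5 to day 7, Fosl2 and Egr1 were at least 2-fold lower, where 20.4% of genes were called so, and 1 member was past 2-fold without cells rich in macrophage markers. The 20.4% can include genes with 0 UMIs at day 5 and few at day 7, as a count of 0 was set to 3.

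Egr1 was low in immune labels. The Immune label was present at days 0 and 2, and its marker makeup differed, with 16721 CPM of macrophage and 50385 CPM of dendritic markers at day 0 and 37612 and 5075 CPM at day 2. Egr1 stood at 291 CPM at day 0 and 29.3 CPM at day 2, a log2 ratio of -3.31 (interval -3.47 to -3.16). FAP marker RNA in this label, at the FAP level, would bring 104 of the 291 CPM at day 0. At day 2 it would bring 8.49 of the 29.3 CPM. The part of FAP RNA in this Egr1 ratio was not tested. Junb stood at 2635 and 756 CPM, and Atf3 at 560 and 313 CPM. In this label 9 members were at least 2-fold lower at day 2, where 25.1% of genes were called so, and Atf3 was the exception at -0.84. That share can include genes with 0 UMIs at day 0 and few at day 2, as a count of 0 was set to 3.

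All labels named for macrophages or antigen-presenting cells (APCs) were joined per day and compared between days 2, 5 and 7. At day 5 this class held 409 cells labelled Macrophages/APCs/T-cells, whose macrophage markers were low, among 841 in all. Egr1 stood at 59.8, 302 and 129 CPM, and Fosl2 at 128, 297 and 56.0 CPM, so both were high at day 5. Fos stood at 500, 929 and 1538 CPM, and Jun at 299, 319 and 740 CPM, so both were high at day 7. From day 2 to day 5, 4 members (Fosb, Fosl2, Egr1 and Egr2) were at least 2-fold higher, where 21.5% of genes were. From day 5 to day 7 Jun was at least 2-fold higher, where 11.6% of genes were, and Fosl2, Egr1, Egr2 and Nr4a1 were at least 2-fold lower, where 23.6% were. Fosl2 at day 5 stood at 400 CPM in Macrophages/APCs/T-cells and 241 CPM in anti-inflammatory macrophages, so its rise from 128 CPM leaned on the former label. For Egr1 at day 5, FAP marker RNA at the FAP level would bring 150 of 323 CPM in the former and 56.5 of 291 CPM in the latter. The joined labels differ in makeup between days, so the label Anti-inflammatory macrophages, present at days 5 and 7, was also compared with itself. There 5 members were at least 2-fold lower at day 7 (Fosb, Fosl2, Egr1, Egr2 and Nr4a1), where 18.2% of genes were, and Jun was higher by a log2 ratio of 0.97.

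Tenocytes were present at days 0 and 7. Fos stood at 4844 CPM at day 0, the highest level in any group, and at 2249 CPM at day 7, a log2 ratio of -1.11 (interval -1.20 to -1.01). The matrix-rich marker set Col1a1, Col3a1, Dcn and Gsn stood in tenocytes at a median of 112% of its FAP level at day 0 and 59.0% at day 7. Whether this is RNA of FAPs or of the tenocytes themselves was not tested. Fos, Jun and Nr4a1 were at least 2-fold lower, where 7.8% of genes were. Egr2 was at least 2-fold higher, where 12.9% of genes were, on 9 and 45 UMIs. With cells thinned to 1000 UMIs, 1 member was past 2-fold in place of 4. Cells labelled mature skeletal muscle held 167 and 394 member UMIs at days 5 and 7. Fosb and Egr1 were at least 2-fold lower at day 7 among 8 members with enough UMIs, where 15.8% of genes were. Without the 8 of 56 day 7 cells rich in macrophage markers, 6 members were past 2-fold. Fos in this label at day 5, at 164 CPM, was under the 196 CPM that the FAP marker RNA in these cells would bring at the FAP level. Junb there, at 236 CPM, was above its corresponding 135 CPM, as were Jun (138 and 83.9 CPM) and Fosb (151 and 90.5 CPM). At day 7 Fos stood at 181 CPM against 59.3 CPM. Egr1, called lower above, stood at 118 CPM against 181 CPM at day 5 and at 25.3 CPM against 23.4 CPM at day 7. The share of FAP marker RNA in this label was 7.20% at day 5 and 2.12% at day 7, and its part in the Egr1 difference was not tested.

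Set against FAPs of the same day, where both sides come from 1 matrix, Egr1 separated immune labels from FAPs on each day. Its log2 ratio was -2.23 (interval -2.37 to -2.10) in the Immune label at day 0, where 26.4% of genes were at least 2-fold lower. It was -4.87 (interval -4.96 to -4.78) in the Immune label at day 2, where 28.4% of genes were. At day 5 it was -3.11 in anti-inflammatory macrophages and -3.73 in NK cells, where 29.3% and 33.5% of genes were at least 2-fold lower. At day 7 it was -3.14 in anti-inflammatory macrophages and -3.34 in NK/T cells, where 32.3% and 32% of genes were. Junb showed no such gap: its log2 ratios to FAPs were -0.33, -0.34, -0.27, 0.12, -0.23 and 0.28 in the same 6 groups. In endothelial cells at day 0 none of the 10 was past 2-fold from FAPs, where 35.3% of genes were.

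The labels NK cells and Macrophages/APCs/T-cells of day 5 and NK/T cells of day 7 held Fosl2 and Nr4a1 above, and Fos and Jun below, FAPs of the same day. Fosl2 stood at 599 CPM (interval 529 to 676) in NK cells at day 5, then at 400 CPM in the label Macrophages/APCs/T-cells, and these intervals did not overlap each other or the next group's. Against FAPs of day 5 the log2 ratio of Fosl2 in NK cells was 1.82 (interval 1.60 to 2.04), where 13.4% of genes were at least 2-fold higher, and that of Fos was -3.37 (interval -3.65 to -3.11). At day 7 Fosl2 stood at 126 CPM in NK/T cells, again above FAPs, at 1.10. Nr4a1 was also at its top in these labels, with 502 CPM in NK cells and 493 CPM in Macrophages/APCs/T-cells at day 5, levels whose intervals overlapped. In NK/T cells at day 7 its log2 ratio to FAPs was 1.26 (interval 1.14 to 1.38), where 18.1% of genes were at least 2-fold higher. The same directions were found in Macrophages/APCs of days 2 and 7, so they are not particular to NK or T cell labels. Nr4a1 stood there at 277 and 414 CPM, against 144 and 147 CPM in FAPs. Fosl2 stood there at 128 and 95.5 CPM, against 69.5 and 58.6 CPM. Anti-inflammatory macrophages of day 7 differed, with Fosl2 at 50.8 CPM.

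The order of groups differed from gene to gene. Jun was highest in tenocytes (2260 CPM) and endothelial cells (1910 CPM) of day 0, with intervals apart from each other and from the next group. Junb was highest in FAPs of day 0, at 3319 CPM, followed by endothelial cells, tenocytes and immune cells of day 0, whose intervals overlapped in turn. Jund was highest in smooth muscle cells of day 0, at 2122 CPM, with an interval that overlapped that of day 0 immune cells. Atf3 was highest in smooth muscle cells too, at 794 CPM (interval 694 to 905), above immune cells of day 0 at 560 CPM. Fosb and Egr1 were highest in FAPs of day 5. Egr2 was highest in the label Neural/Glial/Schwann cells, at 106 CPM on 33 UMIs, with an interval that overlapped FAPs of day 5. The range from highest to lowest group was 14.1-fold for Junb, 30.5-fold for Fos and 99.3-fold for Egr1, and the lowest levels lay in mature muscle or day 2 MuSCs for 9 of the 10 genes. For Egr2 it was NK cells of day 5, with 1 UMI. Fosl2 had 0 UMIs in mature muscle of day 7, where 3 counts would be 6.89 CPM.

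**Figure D4:**
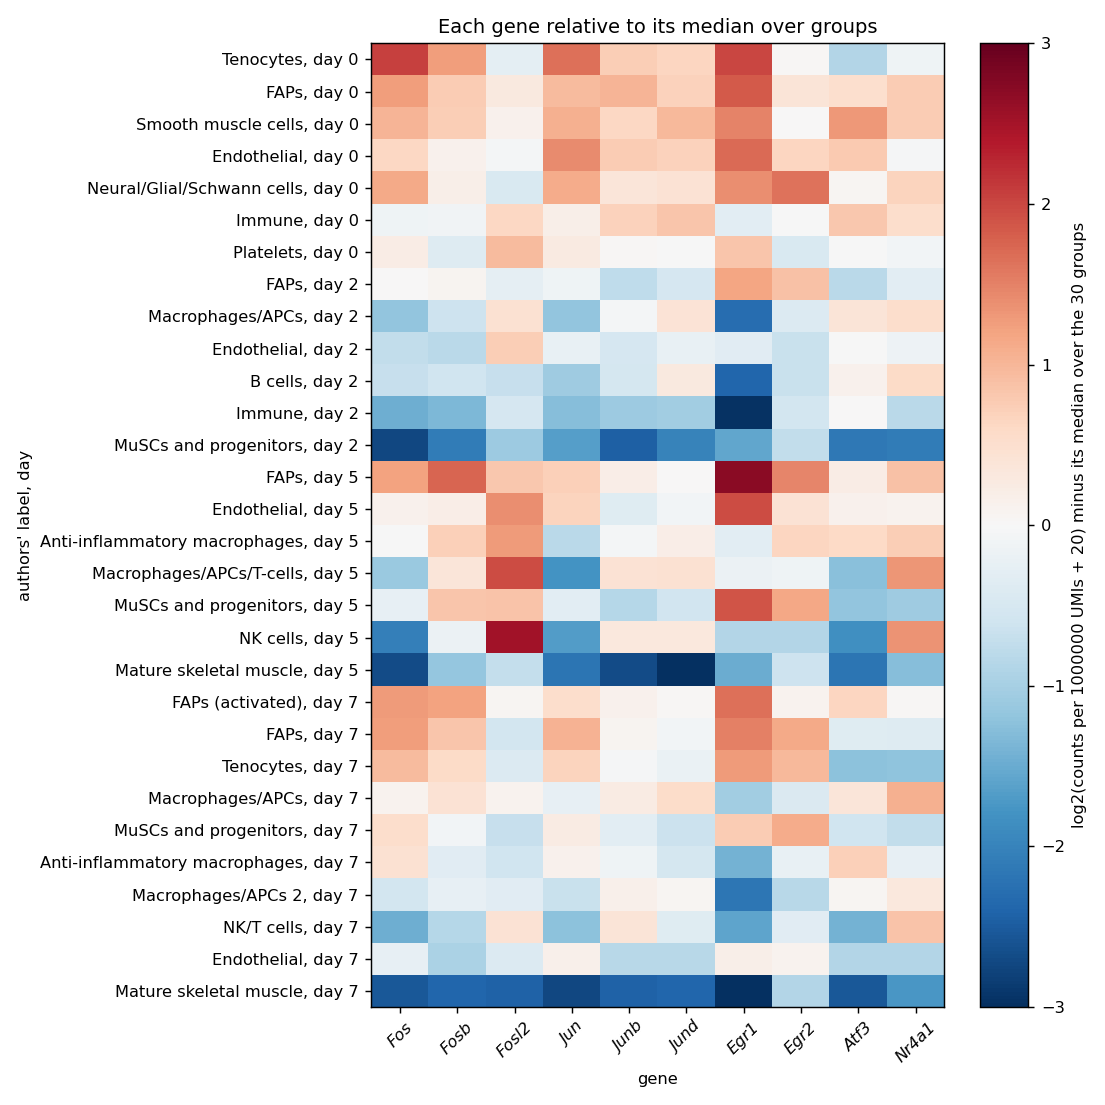
Each gene's log2(counts per 1000000 UMIs + 20) minus its median over the 30 groups (colour), by group (rows, by day and then by summed level) and gene (columns). Fosl2 and Nr4a1 are high in the day 5 NK cells where Fos and Jun are low, and Egr1 is low in immune labels.

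The balance between the families also moved. The ratio of Fos family to Jun family UMIs in FAPs was 0.547 (interval 0.541 to 0.552) at day 0, 0.690 at day 2, 1.01 at day 5 and 0.833 at day 7 in the label FAPs, with 0.973 in the activated label. The ratio in FAPs was thus lowest at day 0 and highest at day 5. In endothelial cells the ratio was 0.353, 0.393, 0.574 and 0.534 over the days. NK/T cells of day 7 had the lowest ratio, at 0.223 (interval 0.211 to 0.236). These are ratios of 3' counts not divided by length, read between groups only. Within the summed UMIs of the 10 genes, Egr1 made up 21.6% in FAPs at day 5 against 11.3% at day 0, and 1.13% in the Immune label at day 2. Junb made up 46.8% in NK/T cells at day 7 and 27.3% in FAPs at day 0.

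Across the 30 groups, which come from 4 matrices, the log2 levels of Fos and Jun had a Pearson correlation of 0.94, and so did those of Junb and Jund. The lowest among the 45 pairs were Egr2 with Nr4a1, at 0.04, and Fosl2 with Egr2, at 0.06. Of 4173 other genes compared, the 10 whose levels were most like the mean of the members were Malat1 (0.87), Ppp1r15a, Wsb1, Hivep2, Dpysl2, Klf4, Irf1, Ccnl1, Dusp1 and Zfp36l1 (0.83). Malat1 is a nuclear noncoding RNA, and Klf4, Dusp1 and Zfp36l1 were in the lists of early response genes or feedback inhibitors. Egr1 was most like Nfia (0.94), and Fosl2 most like Slc38a2 (0.91).

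In single cells thinned to 1000 UMIs, FAPs held a median of 10 UMIs of the 10 genes at day 0 (10th to 90th percentile 2 to 25.5), 5 at day 2, 11 at day 5 and 8 in the label FAPs at day 7. The variance was 8.61 times the mean at day 0, 3.13 times at day 2, 5.61 times at day 5 and 6.04 times at day 7. FAPs of day 2 thus had both the lowest median and the lowest ratio of variance to mean of the 4 days. That ratio can be lower where the mean is lower, and the mean was also lowest at day 2, at 5.34 UMIs. In endothelial cells the median was 7 at day 0 and 2 at day 7, with 7.07% and 19.4% of cells without any UMI of the 10. In mature muscle labels 59.7% and 60.7% of cells had none.

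A Fos UMI was found in 64.9% of thinned FAPs at day 0, 55.2% at day 2, 75.1% at day 5 and 70.8% of the label FAPs at day 7, where 84.6%, 90.9%, 87.8% and 89.1% had one before thinning. The order of the days thus turned with depth: day 2, the lowest after thinning, was the highest before it. For comparison, the share in cells labelled mature skeletal muscle was 9.68% at day 5 and 16.1% at day 7 after thinning, with medians of 1608 and 5728 UMIs per cell before it. In the Immune label of day 2 it was 30.7%. An Egr1 UMI was in 58.8%, 48.9%, 76.4% and 55.2% of thinned FAPs, and in 3.58% of the Immune label at day 2, at the same depth.

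Cells with a Fos UMI were compared with cells without one. In FAPs of day 0, a Jun UMI was in 64.7% of the 2283 thinned cells with a Fos UMI and in 39.0% of the 1233 without. For Egr1 the shares were 71.0% and 36.2%, and for Atf3 33.7% and 14.8%. Jund differed less, at 76.6% and 66.2%. At day 7 the shares for Jun were 69.9% with a Fos UMI and 32.5% without. In endothelial cells of day 0 they were 73.7% and 44.0%. In NK cells of day 5 the shares for Jun lay closer, at 19.3% of 57 cells with a Fos UMI and 15.9% of 207 without. Atf3 was in 1.75% and 7.73% of these cells, the former being 1 cell. Fosb was in 38.6% and 24.2%. In Macrophages/APCs of day 2 Jund was in 60.0% of cells with a Fos UMI and in 65.4% without, with overlapping intervals. Fosl2 and Egr2 were also in a smaller share of the cells with a Fos UMI there. The other members were in a larger share, among them Junb (78.2% and 65.2%) and Atf3 (38.8% and 26.6%). These are shares of cells within 1 matrix and carry no test.

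**Figure D5:**
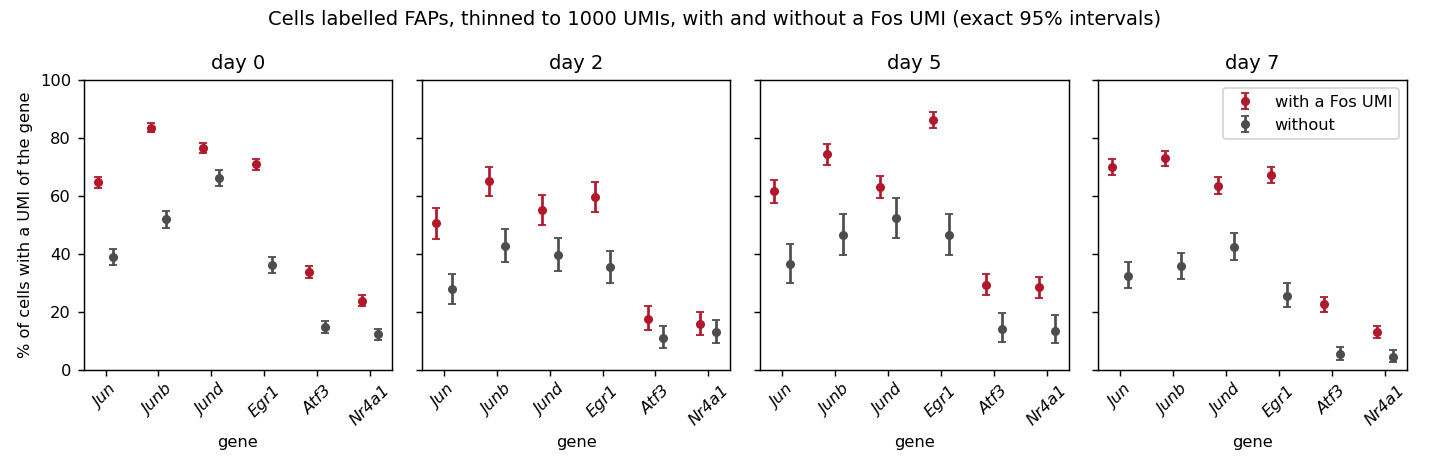
Percent of cells labelled FAPs with a UMI of 6 genes (y axis), in cells with (red) and without (grey) a Fos UMI, by day, after thinning each cell to 1000 UMIs; bars are exact binomial 95% intervals. Jun, Junb and Egr1 lie higher with a Fos UMI on all 4 days.

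Depth and mitochondrial share moved with the level in some labels. In FAPs of day 0 the summed level was 11319 CPM in the cells with fewest UMIs, 12253 CPM in the middle and 12374 CPM in those with most, in 3 groups of equal cell number. In the Immune label of day 0 it ran the other way, from 11980 to 6419 CPM, and in NK/T cells of day 7 from 7196 to 3370 CPM. FAPs of day 7 at or under the median mitochondrial share stood at 10571 CPM and those over it at 7679 CPM. The part of cell quality in the day differences was not tested.

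Other genes of the pathway were taken from lists made with earlier results of these data known. Of 24 other early response genes measured in FAPs at day 2 against day 0, 2 were at least 2-fold higher and 6 lower, where 10.9% of all genes were higher and 14.1% lower. Their median log2 ratio was -0.70, against -0.17 over all genes. Klf4, a zinc finger factor, stood at 951 CPM at day 0 and 242 CPM at day 2, and Klf2 at 850 and 272 CPM. Ctgf, a matricellular growth factor, was higher, at 34.4 and 96.0 CPM. Of 14 feedback inhibitors 1 was higher and 3 lower, near those shares of all genes, with Tob1 at 112 and 27.7 CPM and the growth factor signalling inhibitor Spry2 at 189 and 64.7 CPM. Of 12 other basic leucine zipper partners 2 were higher and 4 lower, with Cebpb, an inflammation and adipogenesis factor, at 641 and 155 CPM. None of 19 upstream kinases and factors was past 2-fold, with a median of -0.14.

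Heat shock genes, which also respond to cell handling, were measured beside the members. Of 12 in FAPs, 4 were at least 2-fold lower at day 2 and 0 higher, where 14.1% of all genes were lower and 10.9% higher, with a median log2 ratio of -0.90. Hspa1a, the inducible HSP70 gene, stood at 1307 CPM at day 0, 379 CPM at day 2, 568 CPM at day 5 and 660 CPM at day 7, so day 0 was the high day. Its neighbour Hspa1b, a near-identical copy whose reads may be split between them, stood at 144, 52.7, 419 and 51.9 CPM. In endothelial cells at day 7, 3 of 12 heat shock genes and 12 of 23 other early response genes were at least 2-fold lower than at day 0, where 10% of all genes were, and 0 of either list were higher, where 7.08% were. In FAPs at day 7, 1 of 12 and 5 of 23 were lower, where 10.6% of all genes were, and 0 were higher, where 9.99% were. The part of handling in the members' levels was not tested.

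Genes reported as AP-1 or EGR targets were past 2-fold in both directions in FAPs. At day 2, 5 of 18 were at least 2-fold higher and 7 lower than at day 0, where 10.9% of all genes were higher and 14.1% lower, with a median log2 ratio of 0.11 against -1.13 for the members. Spp1, the osteopontin gene, stood at 5.26 CPM at day 0 and 611 CPM at day 2. In endothelial cells Spp1 stood at 6.77 CPM at day 0 and 1644 CPM at day 2. Both labels held macrophage marker RNA at day 2, and its part in the Spp1 levels was not tested. Mmp13, a collagenase, had 0 UMIs at day 0 and stood at 58.3 CPM at day 2. Its log2 ratio was 8.31 with a floor of 3 counts in place of the 0, and the lower limit of its interval was 8.01. Vegfa, an angiogenic factor, went from 65.5 to 13.8 CPM, and Plau, a plasminogen activator, from 69.9 to 20.7 CPM. At day 5 against day 0, 7 of 17 were at least 2-fold higher and 2 lower, where 10.2% of all genes were higher and 10.3% lower, with a median of 0.70, against -0.01 over all genes tested. At day 7, 6 of 18 were higher and 6 lower, where 9.99% of all genes were higher and 10.6% lower, with a median of -0.53 against -0.51 for the members. In endothelial cells at day 7 the median of this list was -0.69 against -1.22 for the members.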

How the data were processed

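Per the labels' protocols, muscle cells were sorted alive and sequenced as 10x 3' v2 libraries. Cell Ranger 2, Seurat 2.3.4, R 3.6.2 and build mm10 are named in the submitters' processing notes, without roles. The authors deposited, per day, UMI counts per gene and barcode, normalized values on a natural log scale (each count divided by its cell's total, multiplied by 10000 and raised by 1 before the log, which the counts gave back within 6.22e-15), and metadata with the mitochondrial share as a fraction and a cell label. Since the metadata name day 0 as the injury time on all days, days came from the sample labels. The 8 metadata columns of gene numbers and injury day were not used, and 14, 21, 13 and 9 barcodes without a label were left out of the main values. No doublet caller was run.

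Counts were summed per label and day with Python 3.11.15, numpy 2.4.6, scipy 1.17.1 and pandas 2.3.3, and figures were drawn with matplotlib 3.10.9. A gene was called when past 2-fold with at least 20 UMIs over both sides, in groups of at least 40 cells, and the code was tested on simulated data. For each ratio a count of 0 on either side was set to 3 counts. With very unequal totals, a gene at 0 in the smaller group could thus be called higher there. This bears on the shares of genes for endothelial day 5 with day 0, Immune day 2 with day 0, and MuSCs of day 5. A class joins all labels of a day with its name. Of 19 comparisons of days, 5 were added later (MuSCs day 7 with day 2, Immune day 2 with day 0, tenocytes day 7 with day 0, and mature muscle and anti-inflammatory macrophages day 7 with day 5), as was the comparison of the FAP labels of day 7. All 10 members are named. From each list the 2 highest and 2 lowest FAP ratios of day 2 to day 0 could be named, and like genes are the 10 with the highest correlation among genes reaching 100 CPM in a group and 500 UMIs in all. Cebpd of the leucine zipper list and the markers Ighd and Iglc2 were not found in the tables. The members and lists were chosen with earlier results of these data known. With 1 matrix a day, precision is set by counts, from 5986701 UMIs at day 5 to 57723171 at day 2.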

Additional observations from a re-analysis of the deposited data

Results flagged for a closer look

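Some members had ratios of opposite direction in FAPs and endothelial cells against the same day 0 matrix, and these differences were not tested. Fosb at day 7 had a log2 ratio to day 0 of 0.14 in FAPs and -1.14 in endothelial cells. Fosl2 at day 2 had -0.69 in FAPs and 0.94 in endothelial cells. Egr2 at day 2 had 0.75 in FAPs and -2.93 in endothelial cells, the latter on 3 UMIs at day 2. Egr2 at day 7 had 0.93 in FAPs and -0.87 in endothelial cells. The 10 genes were also found in barcodes to which the authors gave no label. Their summed level there was 5349 CPM in the 14 barcodes of day 0, 1278 CPM in the 21 of day 2, 6588 CPM in the 13 of day 5 and 6015 CPM in the 9 of day 7, where day 2 was again the lowest.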

How the results depend on the processing

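No paired analysis was possible because each day is 1 matrix and no result comes from a test, and leaving out a replicate was not possible for the same reason. The counts of members past 2-fold were within 1.5 times of the values given, for all 23 counts, when only cells with a mitochondrial share under 10% were kept, without a filter on counts, and with totals without mitochondrial genes and members. On the authors' normalized scale the counts were 1 (FAPs day 2 with day 0), 1 (FAPs day 5 with day 0), 0 (FAPs day 7 with day 0), 1 (FAPs day 5 with day 2), 1 (FAPs day 7 with day 5), 1, 0, 1 and 0 (endothelial day 2 with day 0, day 5 with day 0, day 5 with day 2, day 7 with day 5), 0 and 2 (macrophages or APCs day 5 with day 2, day 7 with day 5), 3, 0 and 3 (MuSCs day 5 with day 2, day 7 with day 5, day 7 with day 2), 3 (Immune), and 0 each for tenocytes, mature muscle and anti-inflammatory macrophages. Of pairs of a member and a label past 2-fold from FAPs there were 13 in place of 26 at day 2 and 23 in place of 38 at day 7. On that scale Fosb in endothelial cells at day 2 turned from -1.01 to 0.12 and Atf3 in MuSCs from day 2 to day 5 from 1.21 to -0.0705, and Atf3 turned to -2.27 with thinned cells; the cause was not tested.

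At 1.5-fold the counts were 10, 6 and 6 (FAPs days 2, 5 and 7 with day 0), 5 and 5 (endothelial day 5 with days 0 and 2), 8 (macrophages or APCs day 7 with day 5), 6 (MuSCs day 7 with day 5), 8 (tenocytes) and 5 (mature muscle), and the pairs were 28 at day 0 and 40 at day 2. FAPs day 5 with day 0 gave 1 member when every cell weighed the same, with thinned cells, and without the 5% of cells with most UMIs, and endothelial day 5 with day 0 gave 1 in the former 2 settings. With ratios centred on the median of all genes, FAPs day 7 with day 0 gave 2, and 15 pairs of day 0 were past 2-fold in place of 8. When every cell weighed the same, MuSCs day 7 with day 5 gave 1, tenocytes gave 2, and pairs of day 0 gave 14. Thinned cells gave 1 for tenocytes and 4 for mature muscle. Without cells with more than 5000 CPM of macrophage markers, an alternative chosen after seeing the data, endothelial day 5 with day 2 and MuSCs day 7 with day 5 gave 1 each and mature muscle gave 6. Thinning left 9 member ratios without a value. Of the groups compared, MuSCs (127030 UMIs), mature muscle (152693 UMIs) and endothelial cells (172583 UMIs) of day 5 had the fewest counts.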
